A study of Mus musculus with 36 samples.

Results

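Of the 988 genes of a targeted mouse immuno-oncology panel, 7 were taken as fibroblast and matrix genes, namely the collagen chains Col3a1 and Col8a2, the matrix glycoproteins Spon2 and Thbs4, the surface glycoprotein Cd248, and the secreted proteins Crispld2 and Igfbp5. They were chosen by name, with earlier results of these data known. The differences that weighed in that choice are not recorded, so every fold change and p-value of these genes below is a description and no independent evidence. All 7 were found in both count tables, and all 7 passed the filter on low counts in every comparison.

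The series compared mice with and without a Kit "sash" mutation (Kit-W/sh, called sash here), a regulatory mutation that leaves adult mice short of mast cells, on the C57BL/6 background. Colon tumours came from sash mice and wild-type mice (n = 5 each) aged 32 weeks, 18 weeks after the last of 6 injections of the carcinogen azoxymethane (AOM) at 10 mg/kg per week. Colon with preneoplastic lesions came from sash mice and wild-type mice (n = 3 each) aged 14 weeks, after 3 AOM injections in 3 weeks and a further 3 weeks. Other wild-type mice aged 14 weeks likewise had 3 AOM injections in 3 weeks and a further 3 weeks. They received AOM only (n = 3), or the mast cell stabiliser cromolyn for 3 weeks, either with AOM (n = 3) or after AOM (n = 3). The labelled treatment of the AOM-only group is that of the wild-type lesions. Tumours of the colon carcinoma line MC-38 came from sash hosts (n = 5 analysed) and wild-type hosts (n = 4 analysed), all labelled as given saline, with no age. Whether each sample came from its own mouse is not in the labels. The p-values therefore rest on the variation among the samples at hand, part of which may be technical.

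Library totals were 449880 to 1264354 counts in the AOM samples and 480136 to 986415 counts in the MC-38 tumours, and the 7 genes together took 0.415% to 3.17% of a library. Kit was lower in sash lesions (114 to 143 CPM, a count relative to its scaled library total) than in wild-type lesions (334 to 509 CPM), and the tumour and MC-38 groups overlapped in Kit. The epithelial markers Epcam and Car4 had counts in every AOM library. In the MC-38 tumours, labelled as colon, Epcam had at most 3 counts and Tmigd1, a marker of mature colon epithelium, at most 3, while Car4 of the surface epithelium stood at 22.7 to 186 CPM, so both Epcam and Tmigd1 were at or near 0 there.

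Fibroblasts and pericytes lie under the colon epithelium and around its vessels, where they lay down fibrillar collagens, network collagens and glycoproteins that bind cells and growth factors. Col3a1 encodes the chain of type III collagen, a fibrillar collagen of soft tissues and vessel walls, and Col8a2 encodes a chain of type VIII collagen, a short network-forming collagen. Spon2 (mindin) and Thbs4 (thrombospondin 4) are secreted glycoproteins of the matrix, and mindin also binds bacterial lipopolysaccharide. Cd248 (endosialin) is a surface glycoprotein of pericytes and activated fibroblasts. Crispld2 is a secreted protein of the CAP family, and Igfbp5 is a secreted carrier of insulin-like growth factors that also binds matrix. Since the RNA came from whole tissue, fewer cells of a type and less RNA per cell cannot be told apart.

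Promoter sequence from RefSeq (GRCm38.p6) matched 5 of the 7 genes. Cd248 and Spon2 were not matched. The 250 bases before the annotated start are shown for Igfbp5, Col8a2 and Thbs4. Between AOM tumours and lesions, Igfbp5 was called in both genotypes below, and Col8a2 and Thbs4 in sash mice only. Capitals mark GGGCGG (GC box) and GGAATG (TEAD motif) on either strand, written 5′ to 3′ on the gene's strand.

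Igfbp5 (chr1:72874866-72875115, minus strand): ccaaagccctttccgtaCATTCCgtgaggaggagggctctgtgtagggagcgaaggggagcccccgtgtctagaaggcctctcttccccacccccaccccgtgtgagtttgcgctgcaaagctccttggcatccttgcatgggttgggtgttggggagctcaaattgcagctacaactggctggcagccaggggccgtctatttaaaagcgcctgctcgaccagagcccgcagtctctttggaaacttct

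Col8a2 (chr4:126286544-126286793, plus strand): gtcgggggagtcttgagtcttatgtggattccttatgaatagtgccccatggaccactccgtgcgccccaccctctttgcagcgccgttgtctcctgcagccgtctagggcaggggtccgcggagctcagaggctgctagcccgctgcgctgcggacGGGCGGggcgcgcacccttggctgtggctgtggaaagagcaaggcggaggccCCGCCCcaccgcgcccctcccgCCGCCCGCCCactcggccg

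Thbs4 (chr13:92794819-92795068, minus strand): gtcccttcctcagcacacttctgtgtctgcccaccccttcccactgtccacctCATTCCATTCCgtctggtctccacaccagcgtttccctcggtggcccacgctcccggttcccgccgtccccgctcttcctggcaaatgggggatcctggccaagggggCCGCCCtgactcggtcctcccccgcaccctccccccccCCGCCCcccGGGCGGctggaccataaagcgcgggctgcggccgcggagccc

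Igfbp5 held 1 TEAD motif, and no GC box was found in its window. Col8a2 held 4 GC boxes, of which 2 overlap by 2 bases, and Thbs4 held 3 GC boxes and 2 overlapping TEAD motifs. GC made up 58.8% of the Igfbp5 window, 70.0% of the Col8a2 window and 70.8% of the Thbs4 window. Over all 32851 RefSeq windows of this length, 32.7% held a GC box and 12.6% a TEAD motif on either strand. Searches for TATAAA (12.4% of windows), TGANTCA (AP-1, 6.75%) and CCAAT (33.8%) found none in these 3 windows. A match says only that the letters are present.

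The levels in every library are shown in the plot by group. In the colon, Col3a1, Cd248, Spon2, Thbs4, Crispld2 and Col8a2 each had their highest group mean in AOM-only or cromolyn-with-AOM colon, and Igfbp5 had its highest group means in the tumours of both genotypes. Levels of different genes are not compared, because each value comes from its own amplicon.

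**Figure D1:**
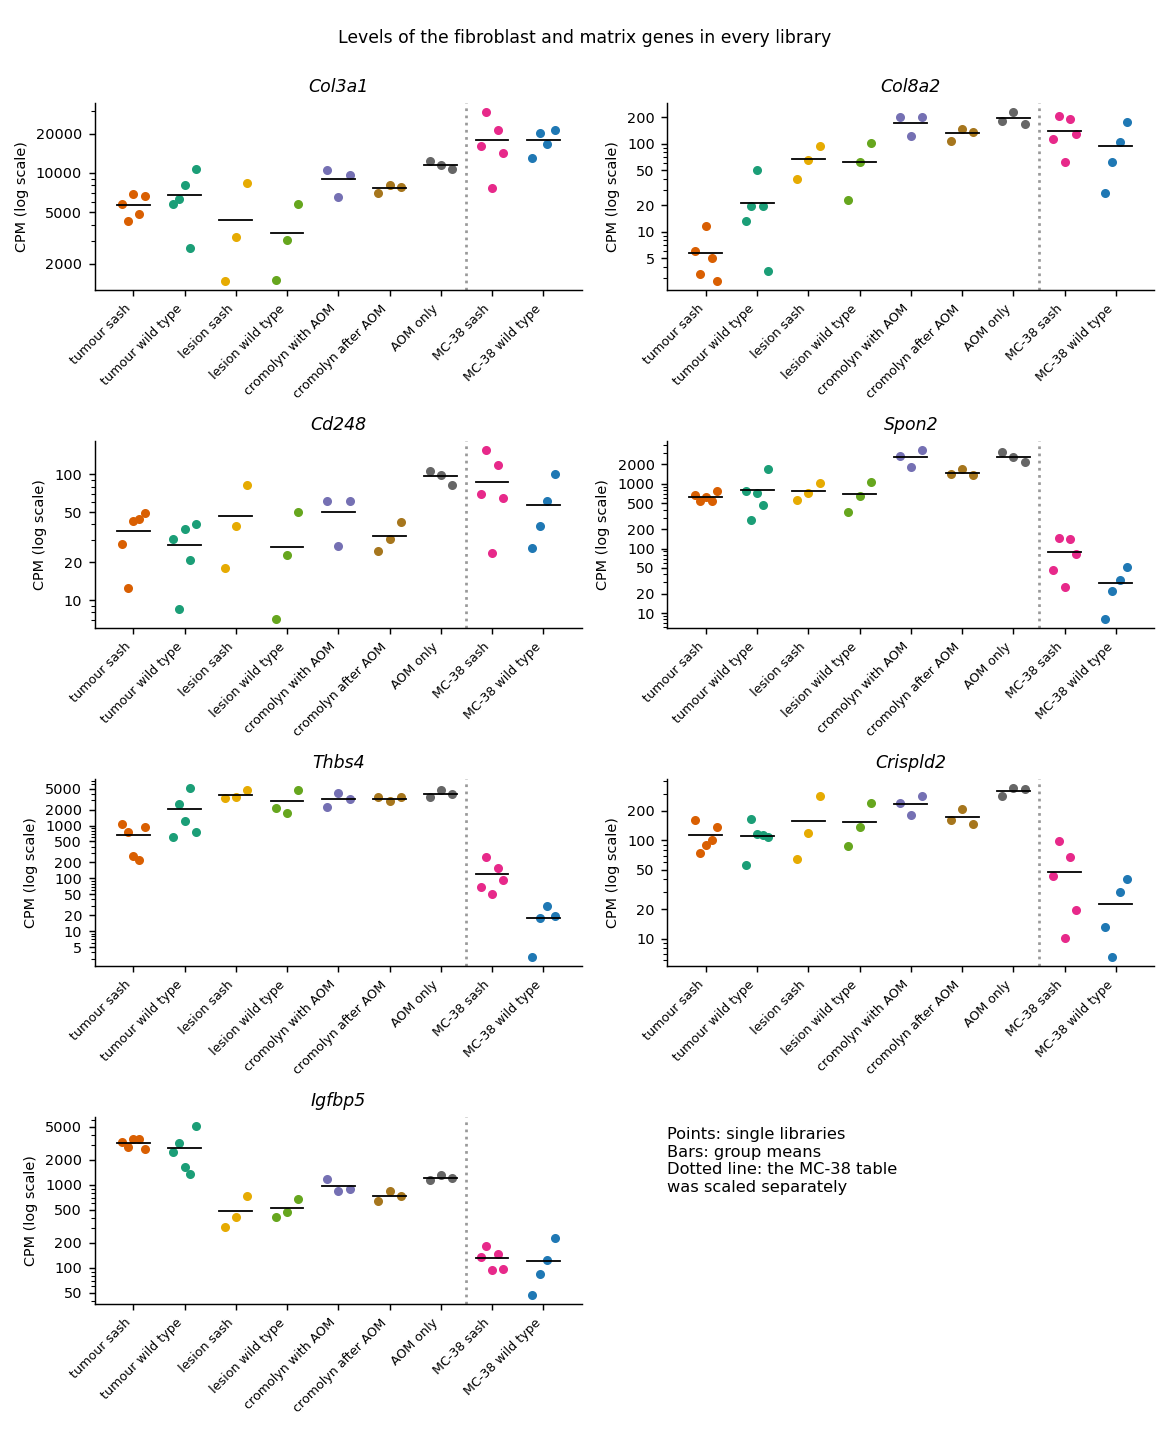
Level of each gene in CPM (log axis) in every library, with the groups on the horizontal axis. Points are single libraries and bars are group means. The MC-38 libraries to the right of the dotted line were scaled in their own table. Igfbp5 stands at 1348 to 5187 CPM in the tumours of both genotypes and at 308 to 743 CPM in the lesions, and Thbs4 in MC-38 tumours stands at 50.9 to 251 CPM in sash hosts and 3.24 to 29.6 CPM in wild-type hosts.

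Between AOM tumours and lesions, Igfbp5 was far higher in tumours of both genotypes, while the network collagen chain Col8a2 and the glycoprotein Thbs4 were lower in sash tumours than in sash lesions. Igfbp5 stood at 3326, 2873, 3577, 3558 and 2691 CPM in sash tumours, against 308, 411 and 743 CPM in sash lesions. In wild-type mice it stood at 2491, 3240, 1642, 1348 and 5187 CPM in tumours, against 416, 473 and 679 CPM in lesions. Tumours and lesions did not overlap in either genotype, and the lowest tumour, wild-type tumour 4, was still above the highest lesion. The log2 fold change was 2.69 (SE 0.42, adjusted p = 0.000166) in sash mice and 2.38 (SE 0.42, adjusted p = 0.000646) in wild-type mice by edgeR's quasi-likelihood test with Benjamini-Hochberg adjustment over all genes tested, which gave every adjusted p below unless DESeq2 is named. Leaving out any of the 8 libraries of a comparison gave 2.47 to 3.15 in sash mice and 2.03 to 2.63 in wild-type mice, and every such fit kept the call.

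Col8a2 stood at 6.10, 3.31, 11.5, 4.98 and 2.75 CPM in sash tumours, which is 3 to 15 counts a library, against 39.4, 65.3 and 94.3 CPM in sash lesions. These groups did not overlap, and the log2 fold change was −3.51 (SE 0.67, adjusted p = 0.000708). In wild-type mice Col8a2 stood at 13.1, 19.7, 50.4, 19.6 and 3.54 CPM in tumours, against 23.0, 62.1 and 103 CPM in lesions, and the groups overlapped through wild-type tumour 3 and wild-type lesion 1. There the log2 fold change was −1.59 (SE 0.63, adjusted p = 0.0593). It passed without wild-type tumour 3 (−2.17, adjusted p = 0.0166) and without wild-type lesion 1 (−1.96, adjusted p = 0.0461), and by DESeq2 (adjusted p = 0.0441). Leaving out 1 library at a time gave −2.17 to −1.02, the weakest without wild-type lesion 3 (−1.02, adjusted p = 0.277).

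Thbs4 stood at 1065, 758, 265, 219 and 938 CPM in sash tumours, against 3338, 3413 and 4809 CPM in sash lesions, with no overlap and a log2 fold change of −2.58 (SE 0.64, adjusted p = 0.00447). Wild-type tumours spread from 598 to 5229 CPM (598, 2610, 1203, 5229 and 763), against 2108, 1695 and 4762 CPM in wild-type lesions. The log2 fold change there was −0.51 (SE 0.64, adjusted p = 0.555). Wild-type tumours 2 and 4 had the most Thbs4 and also the most Tmigd1 of the mature epithelium, at 179 and 158 CPM, while wild-type tumours 1, 3 and 5 had 24.8 to 49.3 CPM. Without wild-type lesion 3 the value for Thbs4 was 0.11 (adjusted p = 0.922).

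In all, 1 of the 7 genes rose and 2 fell in sash tumours (47.5% of the 848 genes tested were called), and 1 rose in wild-type tumours (37% of 848 called). The median log2 fold change of the 7 genes was −0.43 in sash mice and −0.03 in wild-type mice, against 0.02 and 0.00 over all genes. Col3a1 showed how far the lesions spread: it stood at 5735, 4291, 6877, 4865 and 6634 CPM in sash tumours, against 1475, 3210 and 8365 CPM in sash lesions. Wild-type tumours had 5779, 6254, 8069, 2663 and 10781 CPM of Col3a1, against 1515, 3071 and 5750 CPM in wild-type lesions. Tumours and lesions overlapped in both genotypes, and Col3a1 passed only when lesion 3 of both genotypes was left out (log2 1.27, adjusted p = 0.0457 in sash mice, and 1.53, adjusted p = 0.0299 in wild-type mice), a setting chosen after seeing the data. Cd248, Spon2 and Crispld2 did not pass in either genotype, and their tumours and lesions overlapped.

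Other matrix and fibroblast genes also differed between tumours and lesions. The panel holds 23 genes of the wider fibroblast, matrix and TGF-beta lists, and no other collagen and no other gene of the insulin-like growth factor list of 13 names. Of the 23, 12 rose and 5 fell in sash tumours, and 13 rose and 2 fell in wild-type tumours, with a median log2 fold change of 1.32 in sash mice and 1.65 in wild-type mice. Over all 848 genes tested, 47.5% were called in sash mice and 37% in wild-type mice, with medians of 0.02 and 0.00. Spp1 (osteopontin, a secreted phosphoprotein) averaged 2031 ± 1625 CPM in sash tumours (SD, n = 5), with 2.78 to 3.58 CPM in the 3 sash lesions (log2 9.20, SE 1.05, adjusted p = 1.27e-05). In wild-type mice Spp1 averaged 1130 ± 672 CPM in tumours and 7.06 ± 4.45 CPM in lesions (SD, n = 5 and 3, log2 7.34, SE 0.95, adjusted p = 6.1e-05). Mmp12, a protease of macrophages that cleaves elastin, rose by log2 5.78 (SE 0.86, adjusted p = 0.000112) in sash tumours and 6.12 (SE 0.90, adjusted p = 0.000173) in wild-type tumours. Inhba, the activin A subunit, rose by log2 5.29 (SE 0.73, adjusted p = 5.38e-05) in sash tumours and 4.15 (SE 0.68, adjusted p = 0.000419) in wild-type tumours. The platelet-derived growth factor receptor Pdgfrb rose in both (log2 1.26, adjusted p = 0.0191 in sash mice, and 1.30, adjusted p = 0.0219 in wild-type mice), and the fibroblast protease Fap fell in both (−2.16, adjusted p = 0.00163 in sash mice, and −1.21, adjusted p = 0.0475 in wild-type mice).

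Markers of other cell types moved with this contrast. Car4 of the surface epithelium fell in sash tumours (95.5 to 1431 CPM, against 33670 to 62115 CPM in sash lesions) and in wild-type tumours (230 to 14904.5 CPM, against 25353 to 32516 CPM in wild-type lesions), while Epcam ranged from 22437 to 34760 CPM in tumours of both genotypes and from 21429 to 28962 CPM in the lesions. The summed endothelial markers (Kdr, Sele and Selp) were 171 to 363 CPM in sash tumours, against 102 to 185 CPM in sash lesions. In wild-type mice the sum was 117 to 279 CPM in tumours, against 84.9 to 156 CPM in lesions. These markers did not move together, since Selp rose in both genotypes, Sele in sash tumours only, and Kdr in neither. Selp was 88.8 to 236 CPM in sash tumours, against 10.7 to 22.2 CPM in sash lesions. Kdr overlapped, at 78 to 137 CPM in sash tumours, against 84.7 to 169 CPM in sash lesions. In wild-type mice Kdr was 65.1 to 187 CPM in tumours, against 67.2 to 141 CPM in lesions. The pericyte marker Cspg4 was called lower in sash tumours (log2 −1.37, SE 0.49, adjusted p = 0.0315). It was 19.9 to 39.0 CPM in sash tumours and 25.1 to 145 CPM in sash lesions. In wild-type mice Cspg4 was 32.4 to 86.3 CPM in tumours and 28.3 to 73.5 CPM in lesions, and was not called. The summed leukocyte markers were 1677 to 2209 CPM in sash tumours, against 972 to 1193 CPM in sash lesions, without overlap, and 684 to 2601 CPM in wild-type tumours, against 1560 to 3139 CPM in wild-type lesions. Of the 12 leukocyte markers tested, 3 rose and 1 fell in sash tumours, and 2 rose and 4 fell in wild-type tumours. The neutrophil receptor Cxcr2 rose by log2 7.95 (adjusted p = 1.01e-05) in sash tumours and 7.15 (adjusted p = 4.52e-05) in wild-type tumours. The myeloid integrin chain Itgam rose by log2 2.34 (adjusted p = 0.00205) in sash tumours and 1.86 (adjusted p = 0.0119) in wild-type tumours, and the macrophage gene Cd68 rose in sash tumours (log2 1.29, adjusted p = 0.0121). The T cell gene Cd8a went the other way in sash tumours (log2 −3.00, adjusted p = 0.000339) and in wild-type tumours (log2 −1.87, adjusted p = 0.0112). Cd4 fell in wild-type tumours (log2 −1.68, adjusted p = 0.00511). The part of these shifts in the values above was not tested, and age, the number of injections and the time since AOM cannot be told apart from the stage.

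Between sash and wild-type mice, 0 of the 7 genes passed in tumours (0% of 797 genes called). At an unadjusted p below 0.05 there were 2, Col8a2 and Thbs4, where 159 of all 797 genes tested had such a p. DESeq2 called 1, Col8a2 (adjusted p = 0.04996, with 8.84% of genes called). Col8a2 averaged 5.74 ± 3.51 CPM in sash tumours and 21.3 ± 17.6 CPM in wild-type tumours (SD, n = 5 each, log2 −1.88, SE 0.63, adjusted p = 0.129). Wild-type tumour 5, at 3.54 CPM, lay within the sash range. Thbs4 averaged 649 ± 387 CPM in sash tumours and 2081 ± 1930 CPM in wild-type tumours (SD, n = 5 each, log2 −1.70, SE 0.64, adjusted p = 0.187), and without wild-type tumours 2 and 4, the 2 with the most Thbs4, the value was −0.40 (adjusted p = 0.759). With all AOM libraries in 1 fit, which shares the estimate of spread, both genes passed (Col8a2 −1.86, adjusted p = 0.0256, and Thbs4 −1.64, adjusted p = 0.0347). That fit called 88 genes in all, against 0 in the main test. Car4 was highest in wild-type tumour 4 as well, at 14904.5 CPM, and its part in the Thbs4 value was not tested. Cd248, Spon2, Crispld2, Igfbp5 and Col3a1 overlapped widely between the genotypes, and sash tumours varied less in Igfbp5 (3205 ± 404 CPM) than wild-type tumours (2782 ± 1536 CPM, SD, n = 5 each), a spread that was not tested.

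In lesions, too, 0 of the 7 passed (2.84% of 775 genes called). There were 0 at an unadjusted p below 0.05 (148 of the 775 genes) and 0 by DESeq2 (8.06% of genes called). The smallest adjusted p, 0.599, was that of Thbs4, at 3338, 3413 and 4809 CPM in sash lesions, against 2108, 1695 and 4762 CPM in wild-type lesions. Without wild-type lesion 3 the log2 fold change of Thbs4 was 0.99 (adjusted p = 0.0471), against 0.43 with it. All 7 genes were highest in lesion 3 in the sash group and also highest in lesion 3 in the wild-type group. The share of all panel genes with that pattern was not counted, so it is not shown to be particular to the 7. Cd248, for example, stood at 17.9, 38.9 and 82.5 CPM in sash lesions 1, 2 and 3, against 7.07, 22.7 and 49.9 CPM in wild-type lesions 1, 2 and 3. Within a genotype the highest lesion exceeded the lowest by 1.44 times (Thbs4) to 5.67 times (Col3a1) in sash mice and by 1.63 times (Igfbp5) to 7.06 times (Cd248) in wild-type mice. With the sample number as a replicate block the test called 84 genes in place of 22, and none of the 7 was among them.

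**Figure D2:**
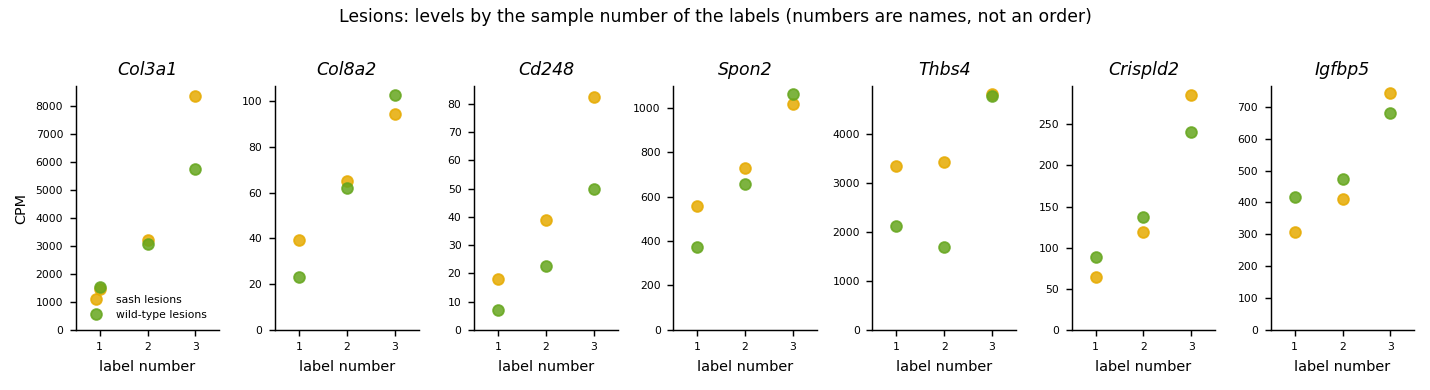
Level of each gene in CPM in the sash and wild-type lesions, placed by the sample number of the labels. Points are single libraries and the numbers are names, not an order. In each of the 7 panels the highest point of both genotypes is at number 3, and the genotypes overlap. The share of all panel genes highest at number 3 was not counted.

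The genotype difference itself, tumours against lesions, passed for 0 of the 7 genes (0% of 848 genes called). At an unadjusted p below 0.05 there was 1, Thbs4 (128 of the 848 genes), and DESeq2 called 0 of the 7 (2.08% of genes called). The difference was −2.07 for Thbs4 (SE 0.93, adjusted p = 0.312) and −1.93 for Col8a2 (SE 0.94, adjusted p = 0.330) on the log2 scale. The lower Thbs4 and Col8a2 of sash tumours were therefore not shown to differ from what wild-type mice did. Among the 23 wider genes, 0 were called between genotypes in tumours (5 at an unadjusted p below 0.05, and by DESeq2 the 3 genes Fgf18, Il33 and Zeb1), and 0 of the 20 tested were called in lesions (3 at an unadjusted p below 0.05, 0 by DESeq2). Over all genes, 159 of 797 in tumours and 148 of 775 in lesions had an unadjusted p below 0.05. DESeq2 called 8.84% of genes in tumours and 8.06% in lesions.

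Cromolyn given after AOM went with lower levels of Cd248, Crispld2, Spon2 and Igfbp5 than AOM alone, and the other genes of the 7 also lay below every AOM-only library. This comparison concerns colon of the lesion stage given cromolyn after the carcinogen, and these counts hold no measure of mast cell stabilisation. The pericyte and fibroblast glycoprotein Cd248 stood at 24.4, 30.5 and 41.9 CPM after cromolyn, against 107, 99.7 and 83.2 CPM with AOM only (log2 −1.60, SE 0.35, adjusted p = 0.0339). Spon2 stood at 1415, 1695 and 1361 CPM after cromolyn, against 3084, 2627 and 2188 CPM with AOM only (log2 −0.84, SE 0.20, adjusted p = 0.0397). For Crispld2 the values were 163, 208 and 149 CPM after cromolyn, against 283, 346 and 333 CPM with AOM only (log2 −0.91, SE 0.21, adjusted p = 0.0346). The groups did not overlap in any of these genes. Igfbp5 stood at 643, 846 and 743 CPM after cromolyn, against 1147, 1303 and 1215 CPM with AOM only (log2 −0.74, SE 0.15, adjusted p = 0.0333).

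The collagen chains and Thbs4 did not pass. Col3a1 stood at 6966, 8101 and 7733 CPM after cromolyn, against 12444, 11559 and 10792 CPM with AOM only (log2 −0.63, SE 0.17, adjusted p = 0.0522, and 0.00972 by DESeq2). Col8a2 stood at 108, 149 and 135 CPM after cromolyn, against 182, 231 and 166 CPM with AOM only (log2 −0.59, adjusted p = 0.187). Thbs4 stood at 3484, 2867 and 3403 CPM after cromolyn, against 3502, 4659 and 3914 CPM with AOM only (log2 −0.33, adjusted p = 0.335), where the highest cromolyn library and the lowest AOM-only library nearly met. In all, 4 of 7 genes fell (4.82% of 768 genes called), and for 7 of 7 every cromolyn library lay below every AOM-only library (15.5% of genes). The median log2 fold change of the 7 was −0.74, against 0.01 over all genes, and all 7 stayed below 0 under each of the 4 scalings.

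All 4 calls were lost with all AOM libraries in 1 fit (adjusted p 0.443 to 0.631) and with scaling to the panel's reference genes (0.0680 to 0.0881). With any of the 6 libraries left out, Cd248 (adjusted p 0.0552 to 0.115), Spon2 (0.0552 to 0.164) and Crispld2 (0.0529 to 0.125) missed it, and Igfbp5 passed only without cromolyn-after library 2 (0.0493, otherwise up to 0.115), although no fold change changed sign and the 37 calls of the comparison shrank to between 1 and 8.

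**Figure D3:**
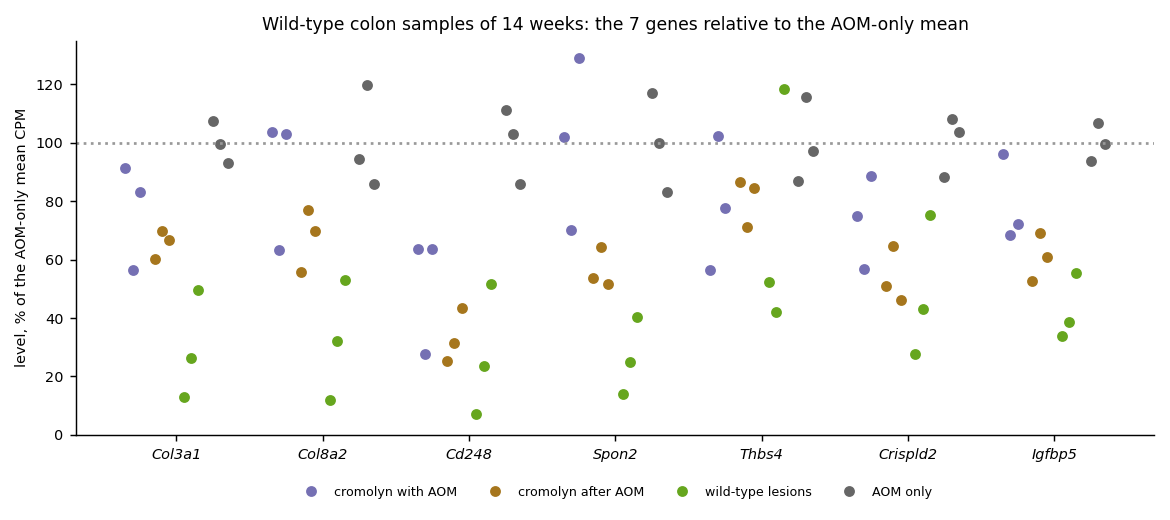
Level of each gene in single libraries of wild-type colon at 14 weeks, as a percentage of the AOM-only mean in CPM. Colours mark cromolyn with AOM, cromolyn after AOM, wild-type lesions and AOM only, and the dotted line is the AOM-only mean. Cromolyn after AOM lies between 25.3% (Cd248) and 86.6% (Thbs4) for all 7 genes, and wild-type lesions lie between 7.31% (Cd248) and 118% (Thbs4).

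Among the 23 wider genes, 20 were tested here, 0 rose and 2 fell, with a median of −0.47, where 4.82% of all 768 genes were called and their median was 0.01. Cd34, a surface protein of fibroblasts and endothelium, stood at 391 to 451 CPM after cromolyn and 635 to 907 CPM with AOM only (log2 −0.87, SE 0.18, adjusted p = 0.0333). The chemokine Cxcl12 stood at 786 to 1032 CPM after cromolyn and 1483 to 1572 CPM with AOM only (log2 −0.71, SE 0.13, adjusted p = 0.0257). Pdgfrb stood at 134 to 166 CPM after cromolyn and 223 to 243 CPM with AOM only (log2 −0.65, adjusted p = 0.0595), and Fap overlapped (51.4 to 61.1 CPM after cromolyn and 38.5 to 63.1 CPM with AOM only). Markers of other cell types moved as well. All 3 epithelial markers had counts in every library, and their sum was 20991 to 38035 CPM after cromolyn, against 47531 to 62294 CPM with AOM only. Most of that gap lay in Car4, at 8155 to 22610 CPM after cromolyn, against 30849 to 44416 CPM with AOM only (log2 −1.25, adjusted p = 0.153). Epcam also lay lower, at 12110 to 15018 CPM after cromolyn, against 16021 to 17397 CPM with AOM only (log2 −0.30, adjusted p = 0.391). Tmigd1 lay the other way, at 686 to 792 CPM after cromolyn, against 402 to 661 CPM with AOM only (log2 0.49, adjusted p = 0.135), so the 3 epithelial markers did not move together and none of them passed. The summed mast cell markers were 535 to 764 CPM after cromolyn, against 381 to 479 CPM with AOM only. Kit, which interstitial cells of Cajal in the gut wall also express, made up most of that sum. It stood at 467 to 660 CPM after cromolyn, against 315 to 418 CPM with AOM only (log2 0.60, adjusted p = 0.153). Of the 7 mast cell markers, 6 had counts in every library after cromolyn, and 6 with AOM only. Tpsab1 was at 0 in every cromolyn-after library, and also in every cromolyn-with-AOM library and every wild-type lesion. The summed leukocyte markers (1173 to 3167 CPM after cromolyn, against 1439 to 1757 CPM with AOM only), endothelial markers (138 to 236 CPM after cromolyn, against 205 to 231 CPM with AOM only) and Cspg4 (81.9 to 87.6 CPM after cromolyn, against 77.1 to 95.9 CPM with AOM only) overlapped. Within the endothelial list, Kdr did not overlap, at 126 to 189 CPM after cromolyn, against 196 to 213 CPM with AOM only, but was not called. The part of these markers of other cell types in the lower matrix genes was not tested.

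With cromolyn given together with AOM, 0 of the 7 passed against AOM only (0.26% of 768 genes called). At an unadjusted p below 0.05 there were 4, Col3a1, Cd248, Crispld2 and Igfbp5, where 128 of the 768 genes had such a p. DESeq2 called 0 of the 7 (4.8% of genes called). Cd248 stood at 61.6, 26.8 and 61.6 CPM with cromolyn and AOM, against 107, 99.7 and 83.2 CPM with AOM only (log2 −0.98, SE 0.34, adjusted p = 0.183). Col3a1 stood at 10612, 6562 and 9644 CPM, all below the AOM-only libraries (log2 −0.39, adjusted p = 0.265). Library 2 of this group was the lowest of its 3 in 6 of the 7 genes, and the AOM-only group is shared by both cromolyn comparisons. Between the schedules, cromolyn with AOM against cromolyn after AOM, 0 of 7 passed (0% of 768 genes called). There were 2 at an unadjusted p below 0.05 (Spon2 and Igfbp5), where 64 of the 768 genes had such a p. DESeq2 called 1 (Spon2, adjusted p = 0.0302, with 0.638% of genes called). Spon2 stood at 2689, 1851 and 3393 CPM with AOM, against 1415, 1695 and 1361 CPM after AOM, without overlap (log2 0.83, SE 0.20, adjusted p = 0.198). Of the 20 wider genes tested, 0 were called by edgeR or DESeq2 for cromolyn with AOM against AOM only (6 at an unadjusted p below 0.05) or between the schedules (0 at an unadjusted p below 0.05). Neither schedule was thus shown to differ from the other in these genes by the main test.

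Wild-type lesions and AOM-only colon share genotype, age and labelled treatment, yet 5 of the 7 genes were lower in the lesions (15.6% of 762 genes called). For 6 of the 7 every lesion lay below every AOM-only library (19.4% of genes), and the median log2 fold change was −1.64, against 0.01 over all genes. In wild-type lesions Spon2 had 371, 657 and 1062 CPM, against 3084, 2627 and 2188 CPM with AOM only (log2 −1.96, SE 0.33, adjusted p = 0.00873). Igfbp5 had 416, 473 and 679 CPM there, against 1147, 1303 and 1215 CPM with AOM only (log2 −1.27, SE 0.20, adjusted p = 0.00617). Of the collagens, Col3a1 had a log2 fold change of −1.80 (SE 0.39, adjusted p = 0.0197) and Col8a2 one of −1.64 (SE 0.44, adjusted p = 0.0354). Cd248 passed at −1.83 (SE 0.52, adjusted p = 0.0433), and Crispld2 (−1.08, SE 0.33, adjusted p = 0.0526) and Thbs4 (−0.55, SE 0.34, adjusted p = 0.294) did not pass. Each of the 7 differences was larger than the one after cromolyn, which was measured against the same AOM-only libraries, and the 2 sets of differences were not tested against each other.

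Single libraries decided several of these calls. Without AOM-only library 1 none of the 5 passed (adjusted p 0.0522 for Igfbp5 to 0.184 for Cd248), and Col3a1, Col8a2 and Cd248 also missed the threshold without AOM-only library 2 (0.0720 to 0.126), AOM-only library 3 (0.0541 to 0.0910) or wild-type lesion 2 (0.0695 to 0.130). Without wild-type lesion 3, Crispld2 (−1.54, adjusted p = 0.00283) and Thbs4 (−1.12, adjusted p = 0.00299) passed too. Of 19 wider genes tested, 0 rose and 5 fell, namely Fn1, Cd34, Csf1, Cxcl12 and Wnt5a, with a median of −0.65, where 15.6% of all 762 genes were called and their median was 0.01. The log2 fold change was −1.30 for Cd34 (SE 0.26, adjusted p = 0.0147) and −1.44 for Cxcl12 (SE 0.25, adjusted p = 0.00873). The endothelial marker Kdr was lower as well (log2 −0.98, adjusted p = 0.0481). Of the 11 leukocyte markers tested, 1 was higher and 1 lower. The B cell gene Ms4a1 was higher (log2 2.79, adjusted p = 0.0154), and the macrophage gene Adgre1 was lower (log2 −1.16, adjusted p = 0.0283). Among the epithelial markers, Tmigd1 was higher in the lesions, at 1248 to 3489 CPM, against 402 to 661 CPM with AOM only (log2 2.12, SE 0.36, adjusted p = 0.00873). Epcam did not overlap, at 21429 to 25517 CPM in lesions, against 16021 to 17397 CPM with AOM only, but did not pass (log2 0.44, adjusted p = 0.104). Car4 lay the other way with overlap, at 25353 to 32516 CPM in lesions (median 28090), against 30849 to 44416 CPM with AOM only (median 39998). The sum of the 3 markers overlapped (50767 to 61522 CPM in lesions and 47531 to 62294 CPM with AOM only). The part of these markers in the lower matrix genes was not tested. The libraries also differed in total, at 616745 to 1149069 counts in lesions and 470661 to 544886 counts with AOM only. The labels name no batch, so the set of samples cannot be told apart from any difference between them.

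In MC-38 tumours Thbs4 was higher in sash hosts, the only 1 of the 7 genes called (1.26% of 714 genes called). It stood at 67.7, 251, 50.9, 155 and 93.7 CPM in sash hosts (30 to 151 counts), against 3.24, 18.1, 29.6 and 19.4 CPM in wild-type hosts (2 to 28 counts). Every sash tumour lay above every wild-type tumour, and the log2 fold change was 2.75 (SE 0.56, adjusted p = 0.0439). The call held without sash tumour 1 or 4 and was lost on leaving out any wild-type tumour or sash tumour 2, 5 or 6 (adjusted p 0.0642 to 0.129), with fold changes of 2.35 to 3.13. Spon2 stood at 47.2, 148, 25.5, 139 and 82.4 CPM in sash hosts, against 8.11, 22, 32.7 and 52.2 CPM in wild-type hosts (log2 1.61, SE 0.56, adjusted p = 0.147, and 0.0497 by DESeq2). Crispld2 had a log2 fold change of 1.09 (SE 0.63, adjusted p = 0.324), and Col3a1, Col8a2, Cd248 and Igfbp5 overlapped between the hosts.

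Sash tumour 4 was the lowest and sash tumour 2 the highest of the sash group in 7 of 7 genes, and wild-type tumour 1 was the lowest of its group in 6 of 7. The summed mast cell markers were 10.3 to 34.9 CPM in sash hosts and 391 to 1163 CPM in wild-type hosts, and the mast cell protease Cpa3 fell in sash hosts (log2 −6.72, adjusted p = 8.1e-07). The summed fibroblast surface genes were 7617 to 13048 CPM in sash hosts and 11623 to 15154 CPM in wild-type hosts, of which Cd34 made up most, and Pdgfrb (28.9 to 191 CPM in sash hosts and 34.1 to 92.6 CPM in wild-type hosts) and Fap (59.4 to 272 CPM in sash hosts and 9.73 to 157 CPM in wild-type hosts) did not pass. Of 22 wider genes tested, 0 were called by edgeR or by DESeq2, and 3 had an unadjusted p below 0.05 (156 of all 714 genes). In AOM tumours the log2 fold change of Thbs4 was −1.70 and did not pass. The difference between the tumour kinds was not tested, because the tables were scaled separately.

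**Figure D4:**
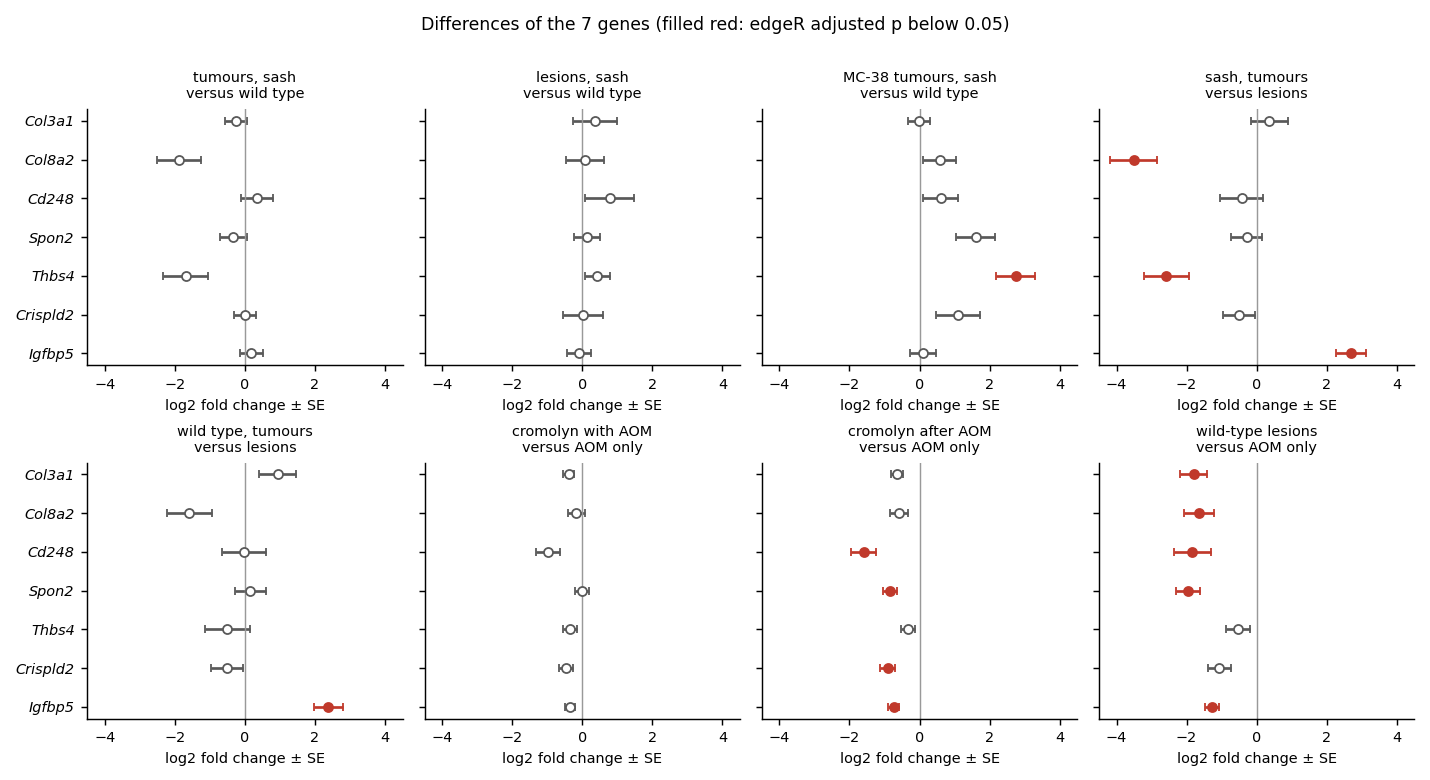
Log2 fold change (horizontal axis) with its standard error for the 7 genes in 8 comparisons, the first group of each title over the second. Filled red points have an edgeR adjusted p below 0.05 over all genes tested, and open points do not. The filled points lie above 0 for Igfbp5 in tumours and Thbs4 in MC-38 tumours of sash hosts, and below 0 elsewhere.

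Across the 25 AOM libraries the 7 genes did not vary as one group. Spearman's rho of CPM was highest between Col3a1 and Spon2 (0.82) and lowest between Thbs4 and Igfbp5 (−0.57), and that between Col8a2 and Igfbp5 was −0.53. Over deviations from group means, Pearson's r for these pairs was 0.70, −0.29 and −0.14. By that measure Igfbp5 had 0.40 (Cd248) to 0.75 (Col3a1) with Col3a1, Cd248, Spon2 and Crispld2, where rho was −0.19 to 0.23. The libraries share groups and scaling, so these values are descriptions. The genes most like Col3a1 among 806 were Cd34 (rho 0.91) and the endothelial receptor Kdr (0.87), and Cd34 was also likest to Spon2 (0.87) and second to Ednrb for Cd248 (0.81 and 0.83). Thbs4 was most like Sult1c2 (0.92), Foxp1 (0.91) and Acpp (0.91), and Igfbp5 was most like the integrin chain Itgav (0.94), Pdlim4 (0.93) and Cadm1 (0.92). Col8a2 was most like Hpgd (0.90) and Crispld2 most like Ncam1 (0.84). In the 9 MC-38 libraries the pairs among the 7 ran from 0.42 (Col3a1 and Thbs4) to 0.97 (Col8a2 with Cd248 and with Spon2), and Pdgfrb was among the genes most like Cd248 (0.98).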

How the data were processed

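RNA was measured with a targeted amplicon panel (QIAseq, Mouse Immuno-Oncology) on a MiSeq, per the labels' protocols. The authors deposited whole-number counts per panel gene in 2 tables, one for 25 AOM libraries and one for 9 MC-38 libraries. The genome build mm9 and DESeq2 stand in the submitters' processing notes, without roles. How reads were aligned, and whether a count is a read or a molecular tag, is not given in the sources used here. The 5 control entries hold 0 counts and were left out. Of 36 labelled samples, 34 were analysed. The other two, MC-38 samples, are not analysed here.

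Each comparison was fitted with edgeR 4.0.16 (quasi-likelihood test, TMM scaling, R 4.3.3) on genes passing its filter (minimum count 10, minimum total 15), with Benjamini-Hochberg adjustment over all genes tested and a threshold of 0.05. The cromolyn and AOM-only groups shared a fit, as did the tumours and lesions of both genotypes. SE is the log2 fold change divided by the square root of F. CPM are TMM-scaled within a table. Depth limits low genes most, such as Col8a2 in sash tumours.

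The members and all gene lists were chosen with earlier results of these data known. Text names the 7 members in every comparison, up to 4 called genes of smallest p per wider list, Pdgfrb and Fap, and for likeness the genes of highest Spearman rho on log2(CPM + 1), with a mean of at least 10 counts. Cell type marker lists are given by their summed CPM, and none of the enteric neuron and glia list is on the panel.

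Alternatives were DESeq2 1.42.0, other scalings (RLE, library totals, reference genes), no filter on low counts, 1 fit over all libraries of a table, the sample number as a replicate block, each library left out in turn, and wild-type tumours 2 and 4 left out. Leaving out lesion 3 of both genotypes was added after seeing the data. Same-numbered lesions of the 2 genotypes deviated from their group means together (r = 0.37, 0.14 and 0.50 for numbers 1, 2 and 3). Pairs of unlike number ran from −0.43 to 0.17, the highest being sash lesion 2 with wild-type lesion 1, above the value for number 2. The main fits left the lesions unpaired, and the sample number entered only as the replicate block among these alternatives. The labels give no pairing, so a pairing by number would come from these data alone. The fits were tested on simulated counts.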

Additional observations from a re-analysis of the deposited data

How the results depend on the processing

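Of 1099 values of the 7 genes under other settings, 944 kept their direction and side of the threshold, 59 lost and 21 gained a call, and 75 changed sign, none of them called. Igfbp5 in tumours against lesions of both genotypes, and Col8a2 and Thbs4 in sash mice, passed under every setting run. The log2 fold change of Thbs4 between wild-type tumours and lesions was 0.0983 without lesion 3 of both genotypes, and it ranged from −1.14 to 0.11 with each library left out. That of Col3a1 between sash tumours and lesions ranged from −0.036 to 1.27. The causes were not tested. Counts of called genes moved as follows. Between genotypes in tumours (0 called), DESeq2 gave 82, library totals 2, all libraries in 1 fit 88, leaving out wild-type tumours 2 and 4 gave 6, and single leave-outs 0 to 17. In lesions (22 called), DESeq2 gave 70, no filter 36, the replicate block 84, and leave-outs 0 to 68. For cromolyn with AOM (2 called), DESeq2 gave 39, library totals 18, reference genes 0, all libraries in 1 fit 0, the replicate block 7, and leave-outs 0 to 15. For cromolyn after AOM (37 called), reference genes gave 1, all libraries in 1 fit 0, and leave-outs 1 to 8. Between the cromolyn schedules (0 called), DESeq2 gave 6, library totals 3, and leave-outs 0 to 1. In MC-38 tumours (9 called), DESeq2 gave 50, reference genes 49, the replicate block over shared numbers 3, and leave-outs 3 to 17. In wild-type tumours against lesions (314 called), reference genes gave 172 and leave-outs 183 to 367. For the genotype difference between stages (0 called), DESeq2 gave 20, all libraries in 1 fit 4, leaving out wild-type tumours 2 and 4 gave 8, leaving out lesion 3 of both genotypes 1, and leave-outs 0 to 10. In wild-type lesions against AOM only (119 called), reference genes gave 199 and leave-outs 11 to 268. With the replicate block, the calls of Spon2 (adjusted p = 0.0821) and Crispld2 (0.0624) after cromolyn and of Thbs4 in MC-38 tumours (0.294) were lost, and Col8a2 in wild-type tumours against lesions (0.0376) and Crispld2 in wild-type lesions against AOM only (0.0347) were gained. Those samples share only a number. Scaling to library totals moved the median of all genes by 0.22 and 0.18 (log2) in wild-type and sash tumours against lesions, with 223 higher and 90 lower calls in wild-type mice (165 and 149 in the main test) and 254 and 150 in sash mice (203 and 200), and by 0.11 after cromolyn (20 and 8, against 18 and 19). Reference gene scaling moved it by −0.43 in wild-type lesions against AOM only (34 and 165, against 66 and 53), −0.26 in MC-38 tumours (2 and 47, against 5 and 4), −0.22 in the genotype difference, −0.16 in tumours between genotypes, −0.13 in sash mice (116 and 166) and −0.11 for cromolyn with AOM. The 4 calls after cromolyn were lost with reference genes (adjusted p 0.0680 to 0.0881) and with all libraries in 1 fit (0.443 to 0.631), and Crispld2 (0.0562) and Igfbp5 (0.0601) with library totals. In wild-type lesions against AOM only, all libraries in 1 fit lost Col8a2 (0.0703) and Cd248 (0.0618).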

Other observations

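In the MC-38 tumours the genes with the same order over the 9 libraries as Col8a2 (Spearman's rho 1) included the eosinophil chemokine Ccl11, the collagen-degrading protease Ctsk and the lipid carrier Apoe. Those with the same order as Spon2 included Cd1d1 and Il4 (rho 1). Thbs4 was most like the macrophage genes Cd163 and Csf1r (both 0.95) and H2-Ab1 (0.95), Crispld2 was most like Itgal, Ccl5 and Il1b (each 0.98), and Igfbp5 most like Steap4, Cd247 and Cd38 (each 0.95). With 9 libraries that share scaling and 2 host genotypes, these values are descriptions. Within the AOM libraries the members' closest genes were others, such as Sult1c2 for Thbs4, whose likeness held within groups (Pearson r 0.92 over deviations from group means), and Hpgd for Col8a2, where it was lower within groups (0.33).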
